A study of Saccharomyces cerevisiae with 8 samples.

Results

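The 40 genes described here encode yeast ribosome assembly factors, the proteins that fold, cut and modify pre-ribosomal RNA and carry both subunits out of the nucleus. They were chosen by name, as nucleolar and pre-ribosome proteins such as NOP1, NOP56, NOP7, NMD3, CIC1, DBP10 and RRP14, and not by any measured value. Earlier results of these data were known when the genes were chosen. All 40 locus tags were found among the 6104 gene models of the deposited table. They carried 651 of its 76330 distinct ACA sites, and 92 of these, in 32 of the genes, had a value in all 8 libraries. No site of DRS1, ERB1, MAK16, NOC3, REA1 (also called MDN1), RPF2, TSR1 or YTM1 had a value in all 8.

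The libraries came from polyA RNA of diploid SK1 yeast, MAT a/alpha lys2/lys2 and ho::LYS2/ho::LYS2, grown in YPD and induced to enter meiosis. NDT80, the transcription factor needed to leave meiotic prophase, was disrupted in every culture (ndt80::LEU2/ndt80::LEU2), so the control cells carried that disruption too. The strains labelled IME4 mutant, called KO here, lacked the m6A methyltransferase IME4 as well (ime4::HIS3/ime4::HIS3), and the strains labelled WT kept it. RNA was sequenced either as input or after pulldown with an anti-m6A antibody (IP), with 2 biological replicates of each combination of genotype and library type. The labels describe 1 strain of each genotype, and they do not give the time after induction.

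In yeast, ribosomal RNA is made in the nucleolus, where box C/D small nucleolar RNPs, RNA helicases, GTPases and scaffold proteins join it while it is still being transcribed. The precursor is then split into a small-subunit and a large-subunit particle, each with its own assembly factors, most of which leave before the subunit reaches the cytoplasm. Genes for these factors are known to be expressed together during growth and to be turned down when yeast is starved, and starvation is also the signal for meiosis. MazF is a bacterial endoribonuclease that cuts RNA before the sequence ACA and does not cut when the first A carries m6A. The deposited value of a site is a cleavage efficiency, a fraction from near 0 to 1 in which a higher number was read as more cutting. That direction comes from the name of the quantity, and no label states it.

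Both genotypes matched their labels at IME4, which has 27 listed sites. Of these, 21 and 23 had a value in WT input and 16 and 24 in WT IP, against 2 and 0 in KO input and 0 and 0 in KO IP. Meiotic prophase markers were present in both genotypes, with 175 and 182 of 182 sites measured in WT input and 176 in each KO input library. NDT80, disrupted in every culture by the labels, has 3 listed sites. Of these, 2 and 3 had a value in WT input and 1 and 0 in WT IP, against 0 and 1 in KO input and 0 and 0 in KO IP. NDT80 was thus measured more in WT input than in KO input, and these few sites do not check its disruption. The share of all sites with a value ran from 36.3% in KO IP replicate 1 to 81.9% in WT input replicate 2, and the 2 WT input libraries stood apart from each other at 59.4% and 81.9%. The table gives no read counts, and the depth at a site is therefore unknown. Replicates of the 92 assembly factor sites correlated at r = 0.822 in WT input, 0.943 in WT IP, 0.984 in KO input and 0.977 in KO IP. The median difference between replicates at these sites was 0.0781 in WT input, compared with 0.0420 over all sites tested, so the assembly factor values of WT input were the least repeatable of the 4 groups.

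Assembly factor genes had fewer measurable sites in WT input than in KO input. Of the 651 listed sites, 229 (35.2%) and 407 (62.5%) had a value in the WT input libraries, and 519 (79.7%) and 527 (81.0%) had one in the KO input libraries. Over all sites of the table the same shares were 59.4% and 81.9% in WT input and 80.6% and 81.3% in KO input. The assembly factor share was thus 0.592 and 0.764 of the share of all sites in WT input, and 0.989 and 0.996 of it in KO input. In 32 of the 40 genes both WT input libraries had fewer measured sites than both KO input libraries, and in none did both have more. Among the 6018 gene models that kept a site once shared positions were counted a single time, 23.1% had fewer in both WT input libraries and 5.33% had more. After each library was divided by its share of all sites, the count was again 32 of 40, with 25.6% of all gene models. Leaving out WT input replicate 1 cannot change this count, because WT input replicate 2 had at least as many measured sites in every gene of the 40. With 2 libraries against 2, an exact two-sided test of a single gene cannot give a p below 0.333, so these are counts of genes whose groups do not overlap. A missing value is not a transcript level, and in bulk RNA fewer cells with the transcript cannot be told apart from less transcript per cell.

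**Figure D1:**
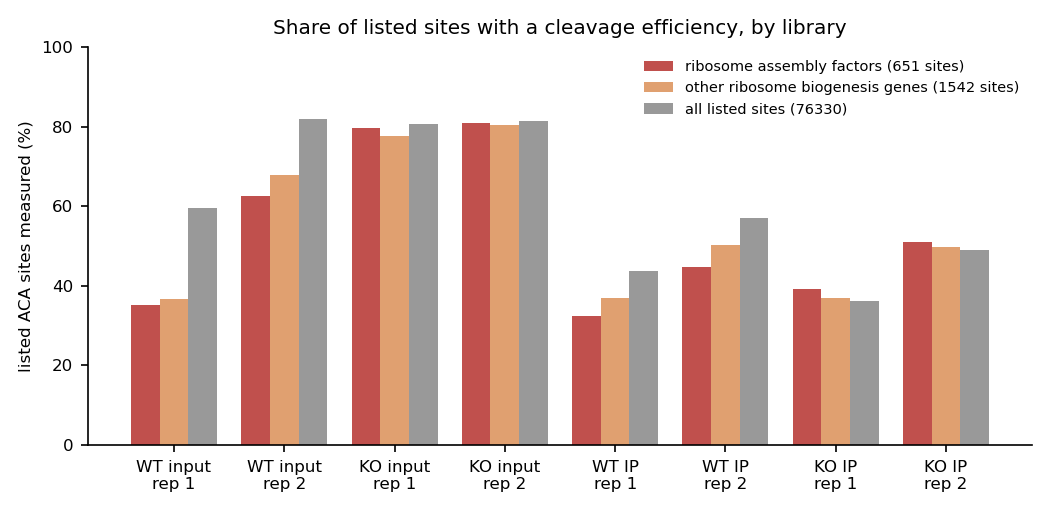
Share of listed ACA sites with a value (y axis, percent) in each of the 8 libraries, for the assembly factor genes, the other ribosome biogenesis genes and all sites. The assembly factor genes lie at 35.2% and 62.5% in WT input and at 79.7% and 81.0% in KO input, while all sites lie at 59.4% and 81.9% in WT input.

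In 6 of the 7 classes of assembly factor both WT input libraries lay below both KO input libraries, and in the Noc proteins MAK21, NOC2 and NOC3 WT replicate 2 and KO replicate 1 tied at 69.3%. The small-subunit factors (UTP4, UTP20, NAN1, ENP1, TSR1, LTV1 and RRP5) had the lowest shares in WT input, with 23.0% and 43.2% of their sites measured in WT input and 74.1% and 74.8% in KO input. The core of the box C/D particles and the rRNA modifiers (NOP1, NOP56, NOP58 and NOP2) had the highest shares of any class in WT input, 50.8% and 82.0%, and 91.8% and 86.9% in KO input. The DEAD-box helicases, which remodel pre-ribosomal RNA, lay between these with 30.3% and 53.2% in WT input against 76.1% and 80.7%.

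Single genes showed the range. The following 5 were picked after their values were seen. YTM1, which forms a large-subunit complex with ERB1 and NOP7, had a value at 0 and 0 of its 2 sites in WT input and at 2 and 2 in KO input. ERB1 had 0 and 5 of 18 sites measured in WT input and 12 and 14 in KO input. TSR1, a factor of late small-subunit maturation, had 0 and 2 of 10 sites against 6 and 8. UTP4, a subunit of the complex that starts small-subunit assembly, had 1 and 8 of 30 sites against 24 and 24. NAN1, of the same complex, had 4 and 4 of 21 sites against 13 and 16. In each of these 5 genes the WT and KO input libraries did not overlap.

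**Figure D2:**
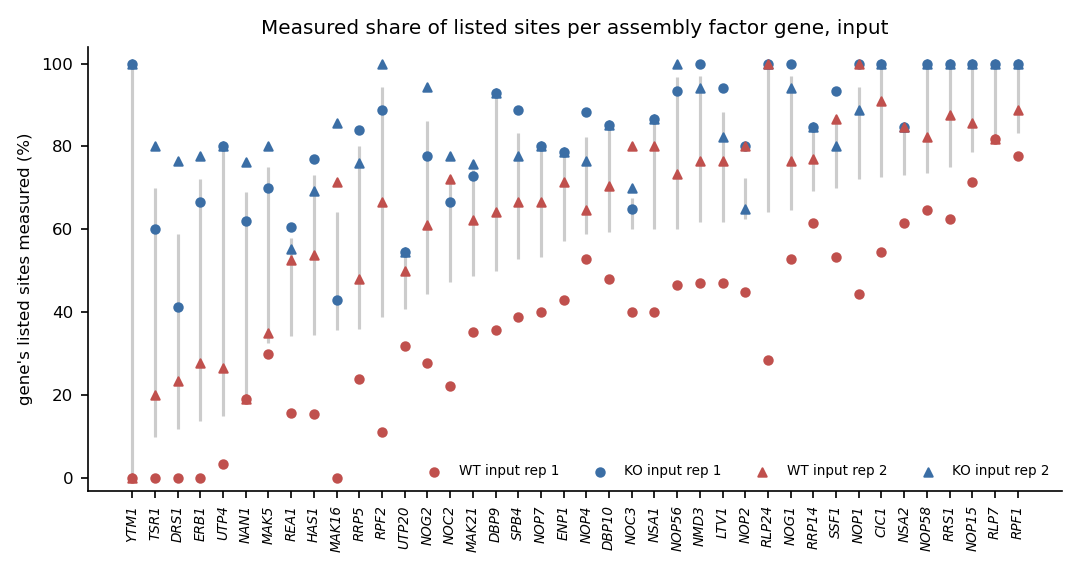
Share of listed sites with a value (y axis, percent) in the input libraries for each of the 40 genes (x axis), with both replicates of WT and KO as points. In 32 genes both WT points lie below both KO points, and in no gene do both lie above.

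After pulldown the picture depended on the scaling. In IP, 211 (32.4%) and 291 (44.7%) of the assembly factor sites had a value in WT and 255 (39.2%) and 332 (51.0%) in KO. Both WT IP libraries had fewer measured sites than both KO IP libraries in 11 of the 40 genes and more in 3, while over all gene models 8.92% had fewer and 27.5% had more. When each library was divided by its share of all sites, 26 genes had fewer and 3 had more, against 24% and 26.8% of all gene models. Leaving out a library can only keep or raise the unscaled count. It rose to 23 without WT IP replicate 2 and to 19 without KO IP replicate 1. The shares over all gene models were not set beside these counts. UTP20, a large scaffold of the small-subunit precursor, was among the 3 genes with more, with 11 and 14 of 22 sites in WT IP and 3 and 3 in KO IP.

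The 121 other ribosome biogenesis genes, taken from a list of further pre-ribosome factors and RNA polymerase I subunits, showed the same direction in input. Of their 1542 sites 36.8% and 68.0% had a value in WT input and 77.6% and 80.4% in KO input. Both WT input libraries were below both KO input libraries in 54 of the 121 genes and above in 1. RME1, a repressor of meiotic entry, had 0 and 3 sites measured in WT input and 15 and 15 in KO input, so it moved the same way in input. After pulldown RME1 went the other way, with 8 and 8 of its 15 sites measured in WT IP against 4 and 6 in KO IP. Its part in the assembly factor result was not tested.

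At the sites that could be measured in all 8 libraries, WT IP and KO IP differed in both directions. Of the 92 assembly factor sites, 15 in 12 genes had lower efficiency in WT IP, the direction of less cutting when IME4 is present, and 28 in 21 genes had higher efficiency. The other 49 did not pass an adjusted p of 0.05 (limma, Benjamini-Hochberg over all 17361 sites tested). Over all sites tested 17% were lower and 24.3% were higher (41.3% in all), so 15 of 92 lies near the background. The groups did not overlap at 74 of the 92 sites, with 72.5% of all sites. The median change, WT minus KO, was 0.0359 at assembly factor sites and 0.0089 over all sites. The sites that passed moved far, with a median of -0.387 among the lower and 0.342 among the higher. Lower sites had a median KO IP efficiency of 0.950, with 11 of the 15 above 0.9 and the lowest at 0.160, and higher sites had a median of 0.207. In a fraction bounded at 0 and 1 the direction of a large change partly fixes these levels. The ribosome biogenesis genes of the wider list had 26 lower and 43 higher sites of 220. Sites are written as the gene and an offset in nt, counted in the direction of transcription from where its model begins in the deposited table. Positions are those of that table, for which the sources used here name no genome build and no exon, intron or UTR.

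NMD3 (YHR170W), the adaptor that links the large subunit to its nuclear export receptor, had the largest fall. Its site +1380 (chromosome 8, position 445375) had efficiencies of 0.220 and 0.244 in WT IP and 0.953 and 0.991 in KO IP. The same site had 0.461 and 0.468 in WT input and 0.877 and 0.893 in KO input. It fell by 0.74 (SE 0.0251, adjusted p = 5.22e-05 by limma) in IP, and the 4 groups did not overlap. WT cells therefore had the lower value both before and after pulldown, and the lowest after it.

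RPF1 (YHR088W), a nucleolar protein of early large-subunit particles, was nearly as strong. At +1010 (chromosome 8, position 281618) the WT IP libraries had 0.0520 and 0.0625 and the KO IP libraries 0.723 and 0.844, a change of -0.726 (SE 0.0479, limma adjusted p = 0.000246). In input the site had 0.190 and 0.192 in WT and 0.919 and 0.838 in KO, so WT stood far below KO in both kinds of library.

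CIC1 (YHR052W), which binds the spacer RNA of the large-subunit precursor, and NOG1 (YPL093W), a GTPase that stays with that particle from nucleolus to cytoplasm, had sites that were low in WT IP alone. CIC1 +1067 (chromosome 8, position 206659) had 0.392 and 0.232 in WT IP, 1 and 0.959 in KO IP, 0.798 and 0.872 in WT input and 1 and 0.972 in KO input. NOG1 +1647 (chromosome 16, position 382302) had 0.370 and 0.172 in WT IP, 0.894 and 0.946 in KO IP, 0.840 and 0.825 in WT input and 0.951 and 0.975 in KO input. The WT IP values of both sites lay below all 6 other libraries, by more than the gap between their replicates. The changes in IP were -0.667 (SE 0.0579, limma adjusted p = 0.000572) for CIC1 and -0.649 (SE 0.0643, adjusted p = 0.000898) for NOG1. CIC1 reached the highest value of the table in KO replicate 1, where many sites share it, so the KO spread is not a replicate error there.

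NOP4 (YPL043W), an RNA-binding protein of early large-subunit particles, had 3 lower sites within one stretch of its model. NOP4 +2260 (chromosome 16, position 475637) had 0.363 and 0.348 in WT IP against 0.913 and 0.925 in KO IP, and +2016 had 0.397 and 0.453 against 0.972 and 0.998. NOP4 +1929 was closer, with 0.786 and 0.803 against 0.975 and 0.925. The first 2 changed by -0.564 and -0.559 (limma adjusted p = 0.00265 and 0.00103) and the third by -0.156 (adjusted p = 0.0408). A site that was higher in WT IP, NOP4 +2138, lay between +2016 and +2260 and is described below. SSF1 (YHR066W), a Brix-domain protein of the same particles, had 2 lower sites. SSF1 +1458 (chromosome 8, position 225532) had 0.374 and 0.228 in WT IP against 0.779 and 0.617 in KO IP, and +1263 had 0.516 and 0.613 against 0.948 and 0.943. Early large-subunit factors as a class had 7 lower and 13 higher sites of 34 tested, beside 17% and 24.3% over all sites.

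Among box C/D and rRNA modification proteins, lower sites were found in NOP2, NOP58 and NOP56. NOP2 (YNL061W), an rRNA methyltransferase of the large subunit, had 0.555 and 0.674 at +1928 (chromosome 14, position 530044) in WT IP and 0.958 and 0.974 in KO IP. NOP58 (YOR310C), a core box C/D protein, had 0.741 and 0.791 at +1585 (chromosome 15, position 906863) in WT IP and 0.954 and 0.982 in KO IP. NOP56 (YLR197W), its partner in that particle, had 0.723 and 0.738 at +1604 (chromosome 12, position 550963) in WT IP and 0.861 and 0.912 in KO IP. The changes were -0.351, -0.203 and -0.156 (limma adjusted p = 0.0128, 0.00256 and 0.0215). This class had 3 lower and 1 higher site of 9 tested, beside 17% and 24.3% over all sites. The NOP58 site is also listed under the overlapping model YOR309C, so its reads cannot be assigned to one of them.

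Small-subunit factors had 2 lower and 3 higher sites of 14 tested, near the 17% and 24.3% over all sites. LTV1 (YKL143W), a late small-subunit factor, had 0.546 and 0.659 at +1361 (chromosome 11, position 180121) in WT IP and 0.984 and 0.995 in KO IP, a change of -0.387 (SE 0.0499, limma adjusted p = 0.00224). ENP1 (YBR247C), which is needed for small-subunit maturation and export, was unlike every other lower site. At +1562 (chromosome 2, position 701759) it was barely cut anywhere, with 0.0114 and 0.0122 in WT IP, 0.0206 and 0.0138 in WT input and 0.0245 and 0.0370 in KO input, and stood out only in KO IP with 0.185 and 0.136. MAK21 (YDR060W), one of the Noc proteins that escort large-subunit precursors, had a small difference at +3029, with 0.803 and 0.836 in WT IP against 0.984 and 0.999 in KO IP (limma adjusted p = 0.0154).

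Among the sites measured in all 8 libraries, RRP14 and MAK21 had the largest changes, both upward. RRP14 (YKL082C), a nucleolar protein needed for both subunits, had 0.920 and 0.923 at +989 (chromosome 11, position 283314) in WT IP and 0.0207 and 0.0660 in KO IP. In input it had 0.576 and 0.809 in WT and 0.411 and 0.307 in KO. The change of 0.878 in IP (SE 0.0793, limma adjusted p = 0.000655) took the site from almost uncut in KO to almost fully cut in WT. DBP10 (YDL031W), a DEAD-box helicase of the large subunit, had 0.904 and 0.762 at +2647 (chromosome 4, position 407686) in WT IP against 0.176 and 0.0664 in KO IP, with 0.576 and 0.592 in WT input and 0.269 and 0.159 in KO input. Its change in IP was 0.712 (SE 0.0657, adjusted p = 0.000697), and no WT library overlapped a KO library.

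MAK21 +3008 had 0.997 and 0.792 in WT IP against 0.106 and 0.193 in KO IP, a change of 0.745 with a wide SE of 0.158 (limma adjusted p = 0.0137). RPF1 +933 had 0.963 and 0.974 in WT IP against 0.478 and 0.426 in KO IP. NMD3 +1286 was less even, with 0.879 and 0.607 against 0.280 and 0.0332. At all 3 the WT IP libraries lay above the KO IP libraries, with changes of 0.745, 0.516 and 0.587. NOP4 +2138 had 0.686 and 0.801 against 0.326 and 0.342, and the helicase gene MAK5 had 0.836 and 0.895 at +2144 against 0.416 and 0.508. These changes were 0.409 and 0.404 (adjusted p = 0.001 and 0.00511).

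The remaining higher sites named by size of change changed by 0.344 to 0.399. UTP4 +1912 had 0.317 and 0.591 in WT IP against 0.0386 and 0.0702 in KO IP. CIC1 +954 had 0.606 and 0.629 against 0.386 and 0.0795, and its KO IP replicates differed by more than the smaller gap between genotypes. RLP7, a protein related to a ribosomal protein that works near CIC1, had 0.504 and 0.612 at +459 against 0.0819 and 0.282. RRS1, which loads the small ribosomal RNA of the large subunit together with RPF2, had 0.669 and 0.722 at +590 against 0.316 and 0.326. NOG1 +1556 had 0.639 and 0.677 against 0.356 and 0.273. None of these groups overlapped. DEAD-box helicases had 5 higher and 0 lower sites among the 19 measured in all 8 libraries, beside 24.3% and 17% over all sites. Sites of MAK5 and DBP10 that lacked an input value were lower in WT IP, as described with the fit of the IP libraries alone.

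**Figure D3:**
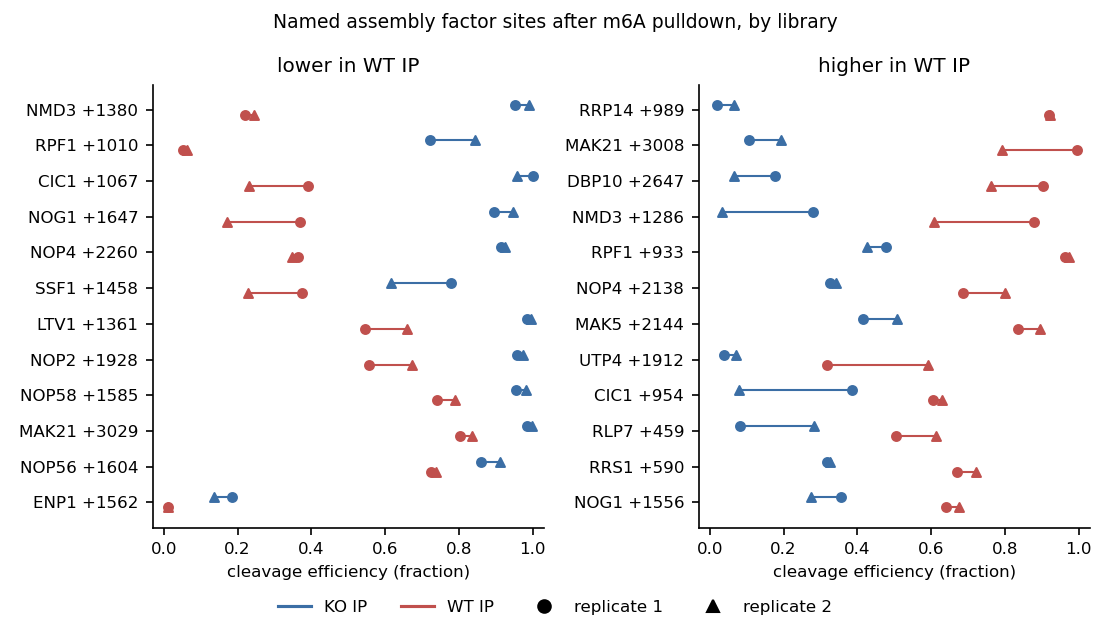
Cleavage efficiency (x axis, fraction) in each WT IP and KO IP library at the named assembly factor sites, lower sites and higher sites in separate blocks. NMD3 +1380 lies at 0.220 and 0.244 in WT against 0.953 and 0.991 in KO, and RRP14 +989 at 0.920 and 0.923 against 0.0207 and 0.0660.

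Of the 32 site results named in IP, 17 passed the threshold in every alternative run, among them NMD3 +1380, RPF1 +1010, CIC1 +1067, NOG1 +1647, RRP14 +989 and DBP10 +2647. Other calls ended with 1 library left out, and the following limma adjusted p-values are those with 1 library left out. SSF1 +1458 reached 0.0597 and 0.0619 without KO IP replicate 1 and WT IP replicate 2. NOP2 +1928 (0.0538 to 0.0621), MAK21 +3029 (0.0515 to 0.0676) and MAK21 +3008 (0.0517 to 0.0693) were lost without KO IP replicate 1, KO IP replicate 2 or WT IP replicate 1. NOP56 +1604 (0.0661 to 0.0899) was lost without KO IP replicate 2 or either WT IP replicate, UTP4 +1912 (0.05 to 0.0917) without either KO IP replicate or WT IP replicate 2, NMD3 +1286 (0.0583) without KO IP replicate 2, and RLP7 +459 (0.0544) without WT IP replicate 2. CIC1 +954 (0.0726 to 0.131) was lost without any library of KO input or WT IP or without KO IP replicate 2, and RRS1 +590 (0.0742 to 0.143) and NOP4 +1929 (0.0655 to 0.158) without any library of KO input, KO IP or WT IP. NOP4 +63 (0.0552 to 0.0656), NOP58 +1429 (0.0863 to 0.102) and SSF1 +1451 (0.0566 to 0.113), described next with their lower neighbours, were lost without any single IP library. NOG1 +1439, a further higher site of NOG1 with 0.885 and 0.917 in WT IP against 0.687 and 0.753 in KO IP, was lost (0.0506 to 0.111) without any library of KO input or WT IP or without KO IP replicate 1. Apart from single libraries, a logit scale ended the calls of CIC1 +954 (0.144), RRS1 +590 (0.0518) and NOP4 +1929 (0.0512), and quantile normalization that of RRS1 +590 (0.0513). Fitting only the IP libraries ended those of CIC1 +954 (0.0838) and UTP4 +1912 (0.0628), and fitting every site measured in them gave 0.0828 and 0.062. A replicate block ended that of RRS1 +590 (0.0547), and a block nested in genotype those of RRS1 +590 (0.0686), NOP4 +1929 (0.059) and SSF1 +1451 (0.0545). The number of higher sites fell without KO IP replicate 1, KO IP replicate 2 or WT IP replicate 2, and so did the number over all sites tested. In each of these runs the share of assembly factor sites called higher was close to the share over all sites.

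Lower and higher sites often lay in the same transcript. CIC1, LTV1, MAK21, NMD3, NOG1, NOP4, NOP58, RPF1 and SSF1, 9 genes in all, had both. In SSF1 the lower site +1458 lay 7 nt from the higher site +1451, which had 0.754 and 0.670 in WT IP against 0.451 and 0.373 in KO IP. MAK21 +3029 and +3008 lay 21 nt apart, RPF1 +1010 and +933 77 nt apart, NOG1 +1647 and +1556 91 nt apart, NMD3 +1380 and +1286 94 nt apart, and CIC1 +1067 and +954 113 nt apart. In each of these 6 pairs the higher site was upstream of the lower one. The order was the reverse for SSF1 +1263, whose nearest higher site lay 188 nt downstream, and for NOP4 +1929 and +2016, where it lay 209 and 122 nt downstream. LTV1 +1201, 160 nt upstream of +1361, had 0.356 and 0.357 in WT IP against 0.0219 and 0.0636 in KO IP. NOP58 +1429 had 0.877 and 0.861 against 0.534 and 0.556, and like NOP58 +1585 it is also listed under YOR309C. NOP4 had a higher site near the start of its model as well, +63, with 0.872 and 0.880 against 0.547 and 0.523, a position also listed under VPS16.

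Such neighbours were common in the table as a whole. Of the 15 lower assembly factor sites, 12 (80%) had a higher site in the same gene, against 73.7% of the 2950 lower sites over all genes. The nearest higher site was within 150 nt for 8 of the 15 (53.3%), against 34.8% over all lower sites, and it was upstream for 7 of these 8, compared with 625 of 1027 such pairs over all genes. Neighbouring sites share reads and are not independent of each other.

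**Figure D4:**
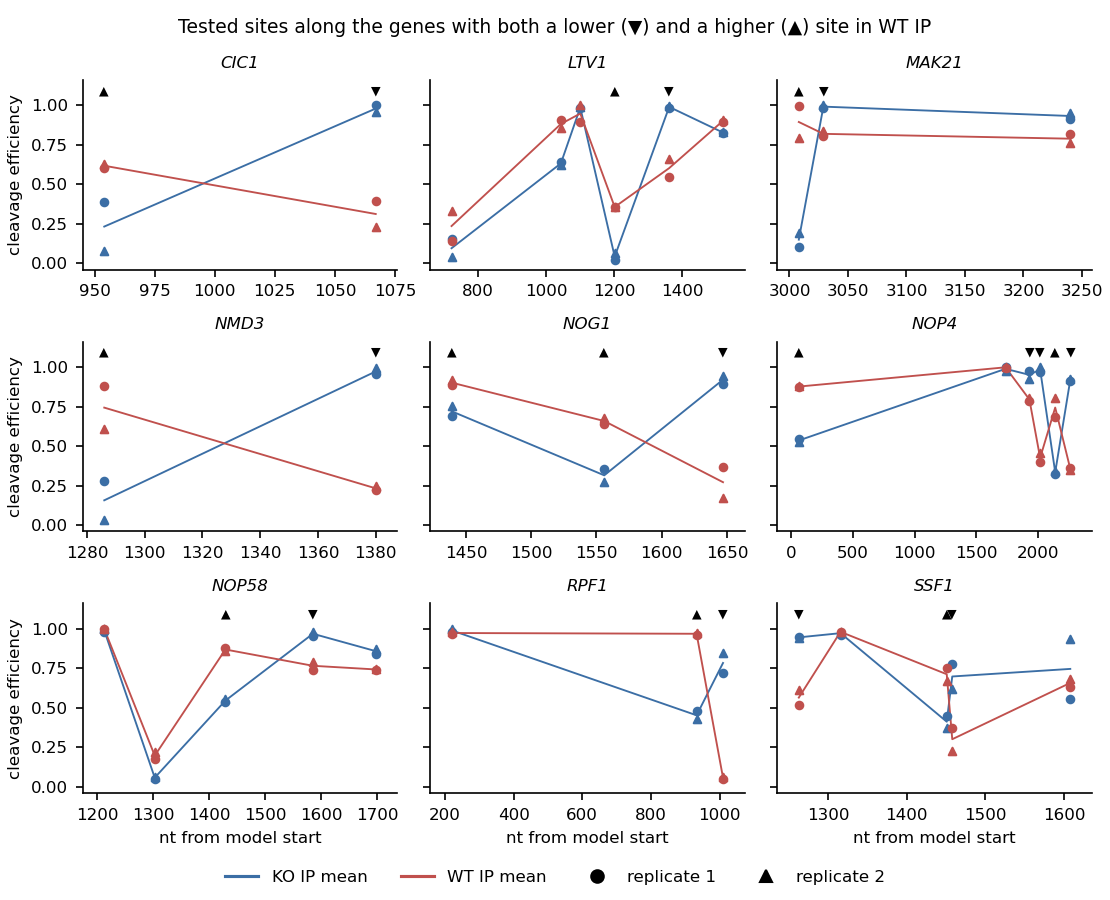
Cleavage efficiency (y axis, fraction) of the tested sites in WT IP and KO IP against the distance in nt from the model start (x axis), for the 9 genes with both a lower and a higher site. Points are libraries, lines join group means, and triangles at the top mark lower and higher sites. In MAK21, RPF1, NOG1, NMD3 and CIC1 the nearest higher site lies 21 to 113 nt upstream of the lower one, while in SSF1 and NOP4 lower sites lie on both sides of a higher site.

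Testable and changed sites lay mostly near the end of the models. The stretch from the start of a model to its final listed site was divided into 5 parts of equal length. Counted in this way, 5, 5, 9, 20 and 53 of the 92 tested sites fell in parts 1 to 5. Part 5 thus held 57.6% of the tested assembly factor sites, against 37.6% over all genes. All 15 lower sites lay in the last 2 parts, 2 in part 4 and 13 in part 5, while higher sites numbered 1, 0, 4, 9 and 14. Over all genes parts 4 and 5 held 647 and 1370 of the 2950 lower sites. In part 4, 10% of the 20 assembly factor sites were lower and 45% higher, against 15.3% and 25.5% over all genes. Within part 5, 24.5% of the assembly factor sites were lower, against 21.0% over all genes, so the share there was close to that of the table.

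When the 4 IP libraries were fitted alone, sites without a value in some input library could be tested too. This gave 146 assembly factor sites in 38 genes: 23 lower and 32 higher, with 14.1% lower and 18.6% higher over all 19503 sites so tested. Of the 54 sites this added, 7 were lower, 7 were higher and 40 did not pass, and the sites named from them were picked after their values were seen. MAK5 +2279 (chromosome 2, position 517699) had 0.0300 and 0.0336 in WT IP against 0.966 and 0.970 in KO IP, and NAN1 +2660 (chromosome 16, position 322072) had 0.0886 and 0.0842 against 1 and 0.979. Neither had a value in either WT input library. Both changes, -0.936 and -0.903 (limma adjusted p = 0.0035 for each), exceeded that of any lower site measured in all 8 libraries.

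REA1, the large AAA ATPase that pulls assembly factors off the large subunit, had 7 sites in this fit. Only its last listed site, +14932, passed, with 0.342 and 0.294 in WT IP against 1 and 1 in KO IP, and the other 6 did not. NOG2, a GTPase of the late nuclear particle, had 0.212 and 0.208 at +2154 against 0.794 and 0.852. MAK21 +2909 had 0.180 and 0.351 against 1 and 1, and DBP10 +1410 had 0.753 and 0.729 against 0.946 and 0.931. WT IP lay below KO IP at each of these sites by more than the replicate gap, and 6 of the 7 added lower sites lay in part 5 of their model. Of the genes without a site in all 8 libraries, DRS1, a helicase of the large subunit, had a higher site at +2240 with 0.706 and 0.865 in WT IP against 0.423 and 0.265, MAK16 at +589 with 0.997 and 0.964 against 0.596 and 0.765, and RPF2 at +1251 with 0.958 and 0.846 against 0.620 and 0.690.

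Input RNA, which had no pulldown, also differed between genotypes, at fewer sites. Of the 92 sites 10 were lower and 9 higher in WT input than in KO input and 73 did not pass, against 15.6% lower and 16.6% higher (32.2% in all) over all sites (limma, adjusted over 17361 sites). The groups did not overlap at 55 of the 92 sites, with 75.5% over all sites, and the median change was 0.00156. These shares stood beside the wide gap between the WT input replicates given above, whose part in the count was not tested. With either WT input replicate left out, the share of assembly factor sites that passed was near the share over all sites. The wider list of ribosome biogenesis genes had 29 lower and 28 higher sites of 220.

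The largest falls in input were at RPF1 +1010, described above, and at LTV1 +1361. LTV1 +1361 had 0.404 and 0.301 in WT input against 0.987 and 0.976 in KO input, and NOP56 +1604 had 0.313 and 0.390 against 0.893 and 0.946. NOP4 +2016 had 0.527 and 0.356 against 0.943 and 0.938, and NOP58 +1585 had 0.405 and 0.391 against 0.864 and 0.858. At these sites and at NMD3 +1380 no WT input value was above 0.527 and no KO input value was below 0.838. The changes were -0.688, -0.629, -0.568, -0.499, -0.463 and -0.421 (limma adjusted p = 0.000529, 0.000717, 0.000494, 0.00228, 0.000379 and 0.000387).

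The largest rises in input were at DBP9, a DEAD-box helicase, and at NOP15, an RNA-binding protein of the large-subunit spacer. DBP9 +1658 had 0.842 and 0.517 in WT input against 0.212 and 0.231 in KO input, and NOP15 +545 had 0.835 and 0.771 against 0.316 and 0.386. LTV1 +1201 had 0.610 and 0.542 against 0.181 and 0.123. The changes of these 3 were 0.458, 0.452 and 0.424 (limma adjusted p = 0.0235, 0.00312 and 0.000849). DBP10 +2647, RRP14 +989 and NOP4 +2138 were higher in input as in IP, with changes of 0.370, 0.333 and 0.303. Without KO input replicate 2 the adjusted p rose to 0.101 at DBP9 +1658, 0.0614 at DBP10 +2647 and 0.135 at RRP14 +989, and without KO input replicate 1 to 0.109 at DBP9 +1658 and 0.067 at RRP14 +989. With only the input libraries fitted, it was 0.0821 at DBP9 +1658 and 0.0955 at RRP14 +989 (0.0909 and 0.106 with every site measured in them), and on a logit scale 0.061 at RRP14 +989. The count of higher sites fell without either KO input replicate, as it did over all sites tested. Without WT input replicate 2 the count rose at assembly factor sites and fell over all sites tested.

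Fitting the 4 input libraries alone brought in 222 assembly factor sites in 35 genes, with 16 lower and 22 higher, against 11% and 14% of 42007 sites. The largest changes among the 130 added sites, picked after they were seen, were a fall at LTV1 +408 and a rise at NOP56 +549. LTV1 +408 had 0.319 and 0.235 in WT input against 0.890 and 0.735 in KO input. NOP56 +549 had 0.767 and 0.924 in WT input against 0.0695 and 0.181 in KO input, a change of 0.720 (limma adjusted p = 0.0166). LTV1 and NOP56 thus each had a site that changed by over 0.5 in input outside the end of the model, in part 2 of 5.

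Where a site passed in both IP and input, it passed in the same direction. Of the 15 sites lower in WT IP 7 were also lower in WT input, and of the 28 higher sites 8 were also higher in input. No site passed in opposite directions. The matching counts over all sites tested were not made, so whether this overlap is usual for the table was not tested. A further 3 sites lower in input and 1 higher in input did not pass in IP. Both comparisons use 1 variance per site, and the input and IP libraries of a replicate may come from the same culture, so they are not independent of each other.

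**Figure D5:**
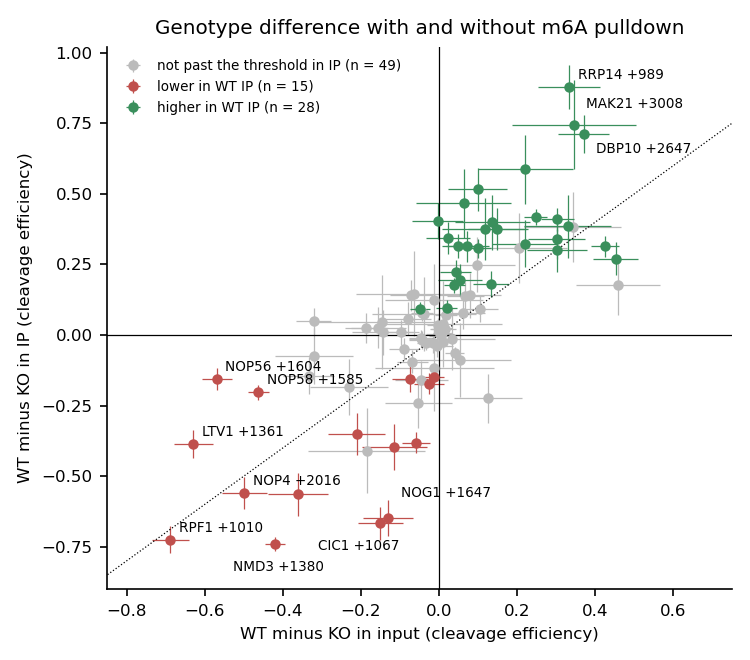
Change in cleavage efficiency, WT minus KO, in IP (y axis) against input (x axis) for the 92 assembly factor sites, with bars of 1 SE from the fit and a dotted line of equal change. CIC1 +1067 and NOG1 +1647 lie far below the line, with -0.667 and -0.649 in IP against -0.151 and -0.131 in input.

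Whether the genotype difference was itself larger after pulldown was tested by the interaction, the change in IP minus the change in input. Of the 92 sites 4 had a negative and 4 a positive interaction, with 4.3% and 3.43% (7.74% in all) over all sites. RRP14 +989 had the largest, 0.545 (SE 0.112, limma adjusted p = 0.0455), followed by NOG1 +1647 with -0.518 (SE 0.091, adjusted p = 0.0314) and CIC1 +1067 with -0.516 (SE 0.0819, adjusted p = 0.0248). NOP56 +1604 went the other way from NOG1 and CIC1, with 0.412 (SE 0.0535, adjusted p = 0.0158): WT was below KO by 0.568 in input and by 0.156 in IP. None of these 4 calls held in every alternative. Interaction calls were fragile over the whole table too. Over all sites tested, most of them ended without KO input replicate 1 or 2, and a replicate block nested in genotype left 0. All 8 interaction calls were lost without KO input replicate 1 or without KO input replicate 2, 3 remained in number without KO IP replicate 1 or 2, and with a replicate block nested in genotype there were 0. The highest adjusted p with 1 library left out was 0.159 for RRP14 +989 and 0.125 for NOG1 +1647 (both without KO input replicate 1), and 0.109 for CIC1 +1067 and 0.0808 for NOP56 +1604 (both without KO input replicate 2).

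Within WT cells, 8 of the 92 sites were lower in IP than in input and 14 were higher, against 8.43% and 12.4% (20.9% in all) over all sites. This split moved with the scaling, to 9 lower and 7 higher after centring each library on its median and to 8 and 7 after quantile normalization. Over all 17361 sites the centring gave 1931 lower and 1316 higher, and quantile normalization 1739 and 1456. The largest falls from input to IP were at NOG1 +1647 (0.562), SSF1 +1458 (0.537) and CIC1 +1067 (0.523). SSF1 +1458 had 0.918 and 0.758 in WT input and 0.374 and 0.228 in WT IP. The largest rises were at NOP56 +1604 (0.379), NOP58 +1585 (0.367) and RLP7 +619 (0.301), with limma adjusted p = 0.00291, 0.00138 and 0.00939. RLP7 +619 had 0.712 and 0.606 in WT input and 0.920 and 1 in WT IP. With only the 4 WT libraries fitted, the adjusted p rose to 0.0554 at SSF1 +1458 and 0.0675 at RLP7 +619 (0.0542 and 0.0674 with every site measured in those libraries). On a logit scale it rose to 0.0611 at CIC1 +1067 and 0.0616 at RLP7 +619. Without WT IP replicate 2 fewer sites passed, among the assembly factor sites and over all sites tested.

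In KO cells no assembly factor site passed between IP and input by limma at an adjusted p of 0.05, against 0.588% lower and 1.09% higher (1.68% in all) over all sites, and 13 of the 92 had an unadjusted p below 0.05. The logit scale, quantile normalization and the robust and trended prior each gave 1. Of the 6 sites named between IP and input in WT, the KO libraries differed least at NOG1 +1647, NOP56 +1604 and CIC1 +1067. NOG1 +1647 had 0.951 and 0.975 in KO input and 0.894 and 0.946 in KO IP, and CIC1 +1067 had 1 and 0.972 against 1 and 0.959. SSF1 +1458 had 0.958 and 0.946 in KO input and 0.779 and 0.617 in KO IP, and NOP58 +1585 had 0.864 and 0.858 in KO input and 0.954 and 0.982 in KO IP. The KO groups did not overlap at these SSF1 and NOP58 sites, nor at NOG1 +1647 and RLP7 +619. None of these changes passed the test (limma adjusted p = 0.208, 0.127, 0.876 and 0.564).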

How the data were processed

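Per the labels, polyA RNA of 8 libraries was measured as input or after anti-m6A pulldown. The authors deposited 1 table of normalized MazF cleavage efficiency, a fraction per ACA site and library; the sources used here give neither its formula, minimum depth and normalization nor the build. The tools listed per the submitters' processing notes are bedtools 2.26.0 and STAR 2.5.3a, without their use. The column names marked with a deletion were taken as the IME4 mutant.

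The table held 77601 lines; 1241 positions were listed more than once and were kept once, under the assembly factor gene where one was involved. Locus tags were matched to the R64 gene table for names only (40 of 40 genes). Sites with a value in all 8 libraries (17361) entered a fit in R 4.3.3 with limma 3.58.1, using the untransformed fraction and a mean for each group (4 residual and 1.72 prior degrees of freedom, prior SD 0.0375). Tests were two-sided, with Benjamini-Hochberg adjustment over all sites of a contrast and a threshold of 0.05. All groups share 1 variance per site. The highest value of each library is shared by 3.23% to 9.80% of its sites. Named sites passed the threshold with groups that did not overlap, up to 12 per direction in IP, 6 in input, 3 between IP and input and 4 in the interaction, taking the largest changes and 1 site per gene and direction; genes with both directions in IP were named with both. The members, lists and tests were chosen with earlier results of these data known. The fit was tested on simulated data. Alternatives were another scale, filter, normalization, prior, set of libraries or replicate block, and each library left out; 3 alternatives for measured sites were chosen after seeing the data.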

Additional observations from a re-analysis of the deposited data

Results flagged for a closer look

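The genotype difference, WT minus KO, differed between IP and input at 8 assembly factor sites by the interaction term of the limma fit. CIC1 +1067 had an interaction of -0.516 (adjusted p = 0.0248), with -0.667 in IP and -0.151 in input. NOG1 +1647 had -0.518 (adjusted p = 0.0314), with -0.649 and -0.131. SSF1 +1263 had -0.322 (adjusted p = 0.0252), with -0.381 and -0.0591. NMD3 +1380 had -0.319 (adjusted p = 0.0116), with -0.74 and -0.421. At these 4 sites WT was further below KO in IP than in input.

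RRP14 +989 had 0.545 (adjusted p = 0.0455), with 0.878 in IP and 0.333 in input, so WT was further above KO after pulldown. NOP56 +1604 had 0.412 (adjusted p = 0.0158), with -0.156 and -0.568, and NOP58 +1585 had 0.26 (adjusted p = 0.021), with -0.203 and -0.463. RLP7 +619 had 0.372 (adjusted p = 0.0312), with 0.05 and -0.322. At NOP56 +1604 and NOP58 +1585 WT was further below KO in input than in IP. At RLP7 +619 WT was below KO in input and slightly above it in IP, where the difference did not pass. The 8 calls are 8.7% of the 92 sites, beside 7.74% over all sites tested. They did not hold without KO input replicate 1 or without KO input replicate 2, and most interaction calls over all sites were lost then too.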

How the results depend on the processing

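With 2 libraries per group, unknown depth per site and a ceiling shared by many sites, small changes cannot be judged here, and the cause of each change below was not tested. No named site reversed under any alternative; 890 site values kept their side of the threshold and 113 did not.

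On a logit scale (offset 0.01), 1 interaction call was found in place of 8, 10 sites in place of 22 between IP and input in WT, and 1 in place of 0 in KO. Over all sites tested, this scale gave 171 negative and 89 positive interaction calls in place of 747 and 596. Between IP and input in WT it gave 1025 lower and 1090 higher in place of 1463 and 2157. Quantile normalization gave 1 assembly factor site in KO, as did the robust and trended prior. Leaving out every site with a library at 0.99 or above left fewer sites to test, 62. It gave 9 lower sites in IP (from 15), 5 lower in input (from 10) and 5 interaction calls. Over all 14367 sites so left, 2442 were lower in IP and 2386 in input, with 580 negative and 558 positive interaction calls. Allowing up to 2 missing libraries (at least 6 of 8 measured) added sites. It gave 32 lower of 185 tested in IP, 34 lower and 18 higher of 200 in input, and 18 interaction calls of 178. Between IP and input in WT it gave 45 of 189. Over all sites so tested, 4557 of 28210 were lower in IP. In input 4536 were lower and 4797 higher of 32827. The interaction had 986 negative and 649 positive calls of 27861, and WT IP against WT input had 2821 lower and 3285 higher of 31487. Fitting only the 4 libraries of a contrast gave 7 between IP and input in WT, against 762 lower and 947 higher of 17361 over all sites. Doing so with every site measured in those libraries gave 23 lower of 146 in IP and 16 lower and 22 higher of 222 in input. Between IP and input in WT it gave 10 of 108, against 1338 lower and 1284 higher of 25877 over all sites. Scaling by each library's share of measured sites, chosen after seeing the data, gave 26 genes with fewer measured sites in WT IP (from 11).

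The replicate number as a block gave 16 lower and 26 higher sites in IP, 10 and 10 in input, and 5 interaction calls. Nested in genotype, the block gave 16 and 25, 12 and 9, and 0, and over all sites tested it left 0 interaction calls as well. Deviations of same-numbered libraries correlated at 0.0788 between WT input and WT IP and at 0.0511 between KO input and KO IP, which does not show the numbers to pair the libraries.

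With each library left out in turn, counts ranged from 16 to 31 (higher in IP), 11 to 18 (lower in IP), 4 to 14 (higher in input), 7 to 14 (lower in input), 0 to 11 (interaction), 13 to 23 (IP against input in WT) and 0 to 0 (in KO). Genes with fewer measured sites in WT ranged from 32 to 40 in input and from 11 to 23 in IP. Leaving out a library can only keep or raise these gene counts, so their ranges do not show stability. The shares over all gene models were not set beside them. In the limma fits with a library left out, the lone library of a group is assumed to vary like the other groups. The counts over all sites tested changed in these fits too, and were not set beside the ranges of site counts.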

Other observations

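Some assembly factor sites were hardly cut in any library. MAK5 +2346 had 0.0502 and 0.0225 in WT IP, 0.0162 and 0.0143 in KO IP, 0.0231 and 0.0136 in WT input and 0.0172 and 0.0184 in KO input. MAK5 +2359, 13 nt away, had 0.0502 and 0.0217 in WT IP and 0.0157 and 0.0140 in KO IP. The 2 sites thus had nearly the same value in each of these libraries.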
